A study of Mus musculus with 4 samples.

Results

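Donor-derived and endogenous cells of the same mouse trachea were compared: cells descended from transplanted primary basal cells, sorted as GFP-positive, and the host's own cells, sorted as GFP-negative. The comparison used every barcode of both libraries with at least 500 detected genes and at most 20% of its UMIs from mitochondrially encoded genes, which gave 3188 cells (1819 GFP-positive and 1369 GFP-negative) of the 6624 that passed the same filter in all 4 libraries of the study. The recipient was an adult wild-type mouse, and both of its libraries carry the strain label C57BL/6. It had received 2% polidocanol, a detergent that strips the airway lining, into the trachea and 6000000 primary basal cells 5 hours later, and it was examined at 69 days. Both groups were therefore taken from the same host at the same time after its injury. The donor cells arrived after the detergent, so exposure to it differs together with the origin of the cells. The strain of the donor animals and the promoter that drove GFP are not given in the sources used here, and neither is whether donors were pooled. A trachea without injury or transplantation is mentioned in the protocols and was not analysed here. Each group is 1 library from 1 animal, so no difference has a replicate and no test was made. Intervals given below are 95% intervals that cover counting error only: exact Poisson for a fold and exact Clopper-Pearson for a share of cells.

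The lining of the mouse trachea is a pseudostratified epithelium. Basal cells sit on the basement membrane and serve as its stem cells, secretory (club and goblet) cells produce mucins, secretoglobins and defence proteins, and ciliated cells move mucus upward. Hillock cells are a stratified, squamous-like state of the same epithelium, and rare tuft cells, ionocytes and neuroendocrine cells make up most of the rest. After detergent injury, surviving or transplanted basal cells can rebuild these types, so each type can be found on either side of the sort.

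The sort and the reporter sequence matched in nearly every cell. A UMI of the EGFP reporter feature was found in 1796 of 1816 donor-derived cells left after doublet removal (98.9%, median 6 UMIs) and in 29 of 1350 endogenous cells (2.15%). The donor-derived library held 26625123 UMIs with a median of 11944 per cell, and the endogenous library 24808125 with a median of 14519. The libraries shared 0 barcodes. The doublet caller removed 3 donor-derived cells (0.165%) and 19 endogenous cells (1.39%), so it removed hardly any from the donor-derived library. Cells were placed in classes by the share of their UMIs that fell on marker genes, with limits set after the distributions of these shares were seen. Classes called -like below rest on those markers. Cells with basal markers above their limit and 4% or more of their UMIs on secretory markers are called intermediate.

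Donor-derived cells held a larger share of basal-like, intermediate and hillock-like cells and a smaller share of secretory-like, ciliated-like and immune-like cells. Basal-like cells made up 48.6% (46.2 to 50.9) of the donor-derived library and 36.7% (34.2 to 39.4) of the endogenous library. Intermediate cells made up 19.2% (17.4 to 21.0) and 13.9% (12.1 to 15.8). Hillock-like cells numbered 116 (6.39%, 5.31 to 7.61) and 42 (3.11%, 2.25 to 4.18). The intervals of the libraries do not overlap for any of these 3 classes. The hillock-like count depends on the limit, since 61 donor-derived and 16 endogenous cells lay between 0.08 and 0.12% around the limit of 0.1%. Over whole libraries the hillock markers summed to 324 and 327 CPM, with Krt13 (35.8 and 90.4 CPM) and Krt6a (15.2 and 32.0 CPM) lower on the donor-derived side.

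Secretory-like cells held a share of 13.3% (11.7 to 14.9) among donor-derived and 19.7% (17.6 to 21.9) among endogenous cells, and ciliated-like cells 8.98% (7.70 to 10.4) and 14% (12.2 to 16). Deuterosomal-like cells, the precursors that amplify centrioles before ciliation, were 9 (0.496%) and 27 (2.00%). Cells with cycling markers, counted across classes, were 18 (0.991%) and 36 (2.67%). Of the 18 donor-derived ones, 10 were basal-like, 5 deuterosomal-like and 1 immune-like. Of the 36 endogenous ones, 9 were basal-like, 11 deuterosomal-like and 11 immune-like. Among basal-like cells these were 10 of 882 and 9 of 496, so the gap lay largely in other classes. Rare epithelial types were found on both sides, with 7 and 11 tuft-like, 9 and 9 ionocyte-like and 5 and 3 neuroendocrine-like cells, and all 21 donor-derived cells of these types carried an EGFP UMI. Immune-like cells were 2 on the donor-derived side (0.110%), neither with an EGFP UMI, against 67 (4.96%). Named clusters gave 0.936% and 5.48%, since 1 cluster, led by Ccl17, Ccl20 and Ccl22, held 16 donor-derived and 22 endogenous cells. Fibroblast-like cells were 0 of 1816, which allows a share of up to 0.165% (3 counts of the total), against 6. The sort gate and cell recovery can set such shares, and their part was not tested.

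**Figure D1:**
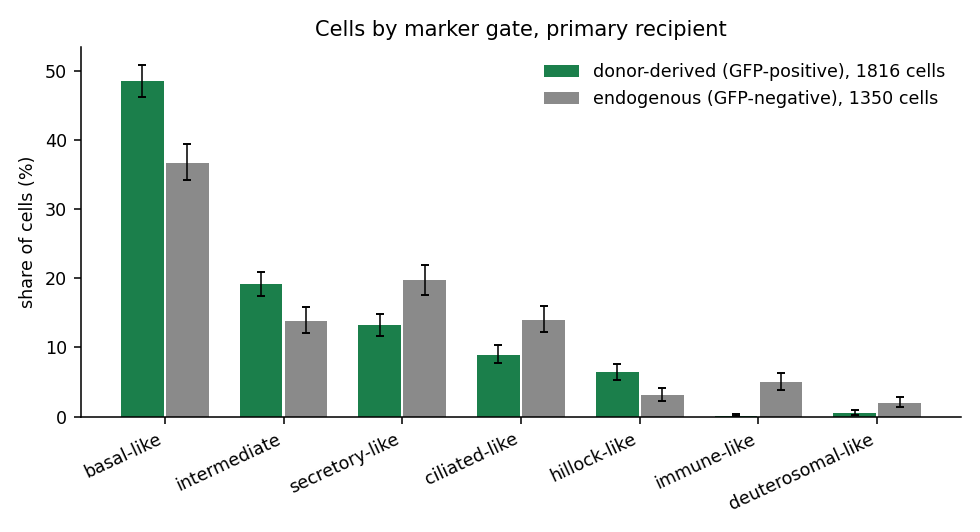
Share of cells (%) in each marker-gated class for the donor-derived (1816 cells, green) and endogenous (1350 cells, grey) libraries. Bars are shares and whiskers exact 95% intervals of counting error; basal-like, intermediate and hillock-like bars are taller on the donor-derived side, and secretory-like, ciliated-like, immune-like and deuterosomal-like bars on the endogenous side.

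Within classes most genes had like levels in both libraries. A gene was measured in a class when it reached 20 CPM (the UMIs of a gene, scaled so that those of all genes in a sum make 1000000) in the summed UMIs of either library, and it was called higher or lower when log2(CPM + 5) differed by at least 1.5-fold and the interval of the CPM ratio excluded 1. Over all measured genes the median absolute log2 ratio lay between 0.10 and 0.12 in the whole libraries and in each of the 4 large epithelial classes. Log2 ratios below are on the log2(CPM + 5) scale, which understates changes of low genes. Folds are ratios of CPM.

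Basal-like cells of donor origin carried far less of the lipid-handling transcripts Apoe, Apoc1 and Cd36 and more Krt14. Of 6332 genes measured, 57 were higher (0.900%) and 65 lower (1.03%) in the 882 donor-derived than in the 496 endogenous basal-like cells. Apoe encodes an apolipoprotein that carries lipids between cells. Its summed level was 160 CPM on the donor-derived side and 1830 CPM on the endogenous side, 11.5 times lower (10.9 to 12.1). Per cell, the median was 0 Apoe UMIs (highest 92) against 20 (highest 105), and 35.0% (31.9 to 38.3) against 95.6% (93.4 to 97.2) of cells had at least 1. Nearly every endogenous basal-like cell thus carried the transcript, and most donor-derived ones gave no UMI of it. With every cell thinned to 5000 UMIs (13 donor-derived and 3 endogenous cells of all classes were shallower and left out), the shares were 27.2% and 91.5%. Ciliated-like cells, which gave little Apoe in either library, had an Apoe UMI in 2.45% (donor-derived, median depth 17237 UMIs) and 5.82% (endogenous, 18754) of cells, against basal-like median depths of 10300 and 11679. Apoe lies on chromosome 7 (19696109 to 19699188, minus strand, GRCm38) beside Apoc1 (19689481 to 19692660, same strand), and both are protein coding.

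Apoc1, a second apolipoprotein, stood at 37.8 and 247 CPM, 6.53 times lower (5.83 to 7.34). Cd36, a fatty acid receptor, stood at 2.36 and 55.1 CPM, 23.3 times lower (15.3 to 37.3), with a UMI in 11 of 882 and 122 of 496 cells. Of 26 genes listed for apolipoproteins and lipid uptake, 10 were measured in this class. Only these 3 were called, all lower, against 1.03% lower over all genes. The list's median log2 ratio was -0.11, against 0.03 over all genes.

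Further genes lower in donor-derived basal-like cells covered a cell surface peptidase, iron transport and metabolic enzymes. Mme, which encodes the peptidase neprilysin, was at 13.9 and 89.5 CPM, 6.42 times lower (5.31 to 7.80). Trf, the iron carrier transferrin, was at 78.3 and 358 CPM, 4.57 times lower (4.21 to 4.97). The carbonyl reductase gene Cbr2, which was abundant in both libraries, was at 4490 and 10500 CPM, 2.33 times lower (2.30 to 2.36), with a median of 27 and 116 UMIs per cell. The tetraspanin gene Tspan1 (56.5 and 132 CPM), Acsm1 (22.9 and 56.2) and the aldehyde dehydrogenase gene Aldh1a7 (61.3 and 129) were 2.11 to 2.46 times lower. Each of these genes was lower by at least 1.5-fold in every alternative tried.

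Krt14, a keratin of basal cells that is raised in activated and squamous states, was at 775 CPM on the donor-derived and 213 CPM on the endogenous side, 3.63-fold higher (3.43 to 3.85). A Krt14 UMI was found in 541 of 882 (61.3%) and 124 of 496 (25%) cells, or 54.0% and 18.4% at the thinned depth, and in 2.45% and 0 of ciliated-like cells. By contrast Krt5, the keratin that marks the class, was at 2080 and 1540 CPM, 1.35-fold higher, and was not called. The Apoe gap was present in both kinds of basal-like cells: with a Krt14 UMI, Apoe stood at 180 and 1880 CPM, and without one at 126 and 1810 CPM. Beside Krt14, the naming rule gave Upk3bl at 82.3 and 38.6 CPM, 2.13-fold higher (1.84 to 2.47), and the large scaffold gene Ahnak2 at 96.1 and 47.2 CPM, 2.03-fold higher (1.78 to 2.33). The clusters that were basal-like held different shares of the libraries. A cluster led by Apoe, Apoc1 and Mme held 61 donor-derived and 328 endogenous cells, and 2 clusters led by Ctgf and by Krt14 held 303 and 41, and 301 and 38. Since these genes differ between the libraries, the cluster sizes are no separate result.

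**Figure D2:**
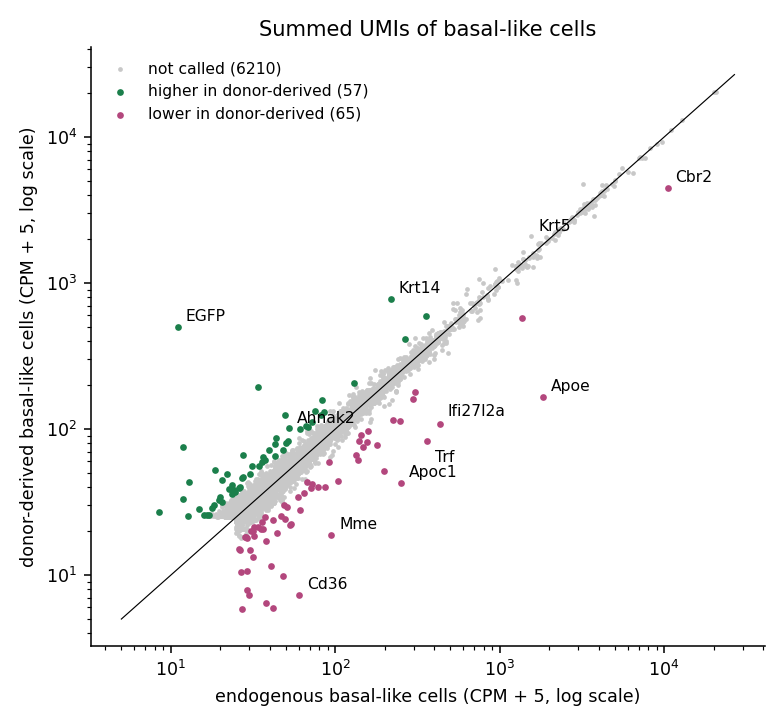
Summed level of each gene measured in basal-like cells, endogenous on the x axis and donor-derived on the y axis (CPM + 5, both log scales), with the line of equality. The 57 genes called higher are green, the 65 called lower magenta and the others grey; Apoe, Cd36, Apoc1 and Mme lie farthest below the line, and the EGFP reporter and Krt14 lie above it.

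Genes of squamous differentiation and desmosomes were higher as a group in donor-derived basal-like cells. Of 33 listed, 18 were measured, 9 were higher and 0 lower, with a median log2 ratio of 0.51 against 0.03 over all genes; the share higher over all genes was the 0.900% given above. Sprr2a3, a cornified envelope precursor, was at 38.5 and 7.84 CPM, 4.90-fold higher (3.63 to 6.75), from 4.08% and 1.61% of cells. Mal, a membrane trafficking protein of stratified cells, was at 40.1 and 15.4 CPM, 2.61-fold higher (2.08 to 3.30). Ly6d, a GPI-anchored surface protein (66.6 and 34.7 CPM), the serpin gene Serpinb5 (128 and 70.4) and the desmosomal plaque gene Pkp1 (75.3 and 45.0) were 1.67-fold to 1.92-fold higher, and Upk3bl, Lgals3, Ecm1 and Krt4 completed the 9. Markers of hillock-like cells, which some of these genes share, summed to 178 and 115 CPM in this class, with 2 of 8 at 0 in each. Among basal-like cells with a Krt14 UMI the count was 2 of 18 and the median 0.21, and among those without one 7 of 17 and 0.42. With cells that carried markers of another class removed they were 6 of 17 and 0.36. In basal-like cells from named clusters they were 8 of 15 and 0.64.

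Of 16 measured of 24 hemidesmosome and basement membrane genes, Sparc, a matrix-binding protein (152 and 77.8 CPM, 1.96-fold), and Col17a1, a transmembrane hemidesmosomal collagen that is also a marker of the class (202 and 125 CPM, 1.62-fold), were higher and none was lower, against 0.900% higher over all genes. Among transcription factors tied to regional identity, 28 of 48 were measured. Pitx1, a homeobox gene, was at 47.2 and 13.6 CPM, 3.47-fold higher (2.75 to 4.42), Barx2 was at 54.8 and 30.7 CPM, 1.78-fold higher (1.51 to 2.11), and Irx3 was at 29.2 and 54.3 CPM, 1.86 times lower (1.58 to 2.18).

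Interferon-stimulated genes, which cells switch on through the receptor for interferon and the transcription factors STAT and IRF, were lower in part. Of 44 listed, 24 were measured in basal-like cells, and 0 were higher and 6 lower, with a median log2 ratio of -0.34 against 0.03 over all genes and a background share lower of 1.03%. Ifi27l2a, a small mitochondrial protein, was at 104 and 428 CPM, 4.10 times lower (3.82 to 4.41), and had a UMI in 32.5% and 58.5% of cells, or 22.7% and 46.2% at the thinned depth. Isg15, a ubiquitin-like modifier, was at 19.1 and 44.2 CPM, 2.32 times lower (1.92 to 2.80). Rtp4, a receptor chaperone that also restrains viruses, was at 20.4 and 41.6 CPM, 2.04 times lower (1.69 to 2.47). Ifit1, which binds foreign RNA ends, was at 24.4 and 45.6 CPM, 1.87 times lower (1.57 to 2.23). Ifi44 (10.1 and 20.8 CPM) and the tethering factor gene Bst2 (16.2 and 29.0 CPM) were 2.07 and 1.79 times lower. With the filter at 50 CPM, 6 list members were left, the median was -0.20 and 1 was lower. In ciliated-like cells 26 members of the list were measured and 0 were called, with a median of -0.09 against -0.03 over all genes. No gene of the 13 measured for MHC class I presentation was called, and the median there was -0.07.

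The promoters of the lower interferon-stimulated genes that were called are shown because the control elements of this group are well described. The 150 bases before the start were taken from RefSeq sequence of build GRCm38.p6 for the 4 of 6 genes with an entry, and written 5′ to 3′ on the strand of the gene. Capitals mark every match of the motif GAAANNGAAA on either strand (TTTCNNTTTC on the other), a core of the interferon-stimulated response element. Matches may overlap, and capitals then join.
Isg15 (chr4:156200819-156200968, minus strand): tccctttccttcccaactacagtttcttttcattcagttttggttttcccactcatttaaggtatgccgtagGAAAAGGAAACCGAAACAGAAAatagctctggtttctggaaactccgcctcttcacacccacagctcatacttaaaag
Ifit1 (chr19:34640739-34640888, plus strand): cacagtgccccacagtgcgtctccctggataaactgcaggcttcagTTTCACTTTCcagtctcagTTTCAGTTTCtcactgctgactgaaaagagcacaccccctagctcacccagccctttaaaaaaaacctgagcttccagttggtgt
Ifi44 (chr3:151749911-151750060, minus strand): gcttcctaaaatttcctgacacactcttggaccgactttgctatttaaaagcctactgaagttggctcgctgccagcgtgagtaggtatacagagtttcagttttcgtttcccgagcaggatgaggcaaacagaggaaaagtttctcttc
Bst2 (chr8:71537473-71537622, minus strand): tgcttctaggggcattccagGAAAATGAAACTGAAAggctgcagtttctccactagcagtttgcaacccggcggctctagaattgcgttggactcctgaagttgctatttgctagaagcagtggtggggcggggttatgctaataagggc
Isg15 had 3 matches, Ifit1 2, Bst2 2 and Ifi44 0. Over the 32817 windows of the same length before all genes, 521 (1.59%) held the motif. A match is a description of the sequence and no evidence of binding in these cells.

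Defence genes of basal-like cells went both ways. Of 10 measured of 26 acute phase and antimicrobial genes, 4 were higher and 2 lower, against 0.900% and 1.03% over all genes, with a median of 0.09. This balance did not hold for other ways of taking the class: in basal-like cells from named clusters 1 was higher and 5 lower of 9 (median -0.59), and with mixed cells removed 1 was higher and 3 lower of 8 (-0.33). The iron-binding Ltf was at 190 and 28.8 CPM, 6.58-fold higher (5.65 to 7.72) with 60.5% of its donor-derived UMIs in 5 cells, Chil4 at 69.9 and 6.88 CPM, and Lcn2 at 99.8 and 61.2 CPM. Reg3g, a secreted lectin that is also a marker of the secretory class, was at 570 and 1360 CPM, 2.39 times lower (2.31 to 2.47), and the complement gene C3 at 54.2 and 86.5 CPM. Chil4 had a UMI in 17 and 12 basal-like cells, and its highest cell held 357 UMIs. Cdkn1c, an imprinted inhibitor of the cell cycle, was at 17.1 and 48.2 CPM, 2.81 times lower (2.32 to 3.42), and was the 1 gene called of 12 imprinted genes measured. None of 16 cell cycle genes, 16 heat shock genes, 13 mitochondrially encoded genes or 18 genes of glycolysis and hypoxia was called in this class, and their medians lay between -0.12 and 0.02.

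Secretory-like cells of donor origin had lower levels of goblet products and higher levels of a mixed set of surface and signalling genes. Of 4797 genes measured, 52 were higher (1.08%) and 42 lower (0.876%) in 241 donor-derived against 266 endogenous cells. Gp2, a zymogen granule membrane protein, was at 19.8 and 186 CPM, 9.38 times lower (7.71 to 11.5), with a UMI in 7.88% and 36.1% of cells. Tff2, a trefoil peptide that is secreted with mucins, was at 341 and 1510 CPM, 4.44 times lower (4.23 to 4.67), with a median of 0 and 2 UMIs per cell and a highest value of 410 and 762. At the thinned depth a Tff2 UMI was found in 21.2% and 46.6% of cells. In ciliated-like cells, which are not a source of it, the shares were 22.1% and 25.4%, or 6.13% and 7.41% at the thinned depth. Lrg1, a secreted leucine-rich glycoprotein, was at 22.1 and 82.4 CPM, 3.72 times lower (3.05 to 4.56).

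Of 13 measured of 18 mucin and goblet genes, 5 were lower (Gp2, Tff2, Foxa3, Muc5b and Muc5ac) and Clca1 was higher, against 0.876% lower and 1.08% higher over all genes. The list's median log2 ratio was -0.50, against 0.05 over all genes. The gel-forming mucin Muc5b, a marker used for the class, was at 2580 and 4380 CPM, 1.70 times lower (1.66 to 1.73), and Muc5ac, the mucin of goblet cells, at 87.5 and 150 CPM, 1.72 times lower (1.54 to 1.92). A cluster led by Tff2, Muc5ac and Gp2 held 12 donor-derived and 66 endogenous cells. It is defined by genes of this list, so leaving it out lowers the list by construction. Without it, an alternative chosen after seeing the data, with 229 and 200 cells left, the median was -0.04 and 2 of 12 genes were lower. Gp2 then stood at 7.16 and 49.8 CPM, Tff2 at 93.9 and 200 CPM, Muc5b at 2150 and 2730 CPM and Lrg1 at 15.3 and 20.9 CPM. Gp2 and Tff2 were thus lower outside it too, while Muc5b and Lrg1 no longer differed by 1.5-fold.

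Other genes lower in donor-derived secretory-like cells did not depend on that cluster for their direction. Chad, a matrix protein gene, was at 94.8 and 222 CPM, 2.34 times lower (2.12 to 2.59), with a UMI in 58.1% and 88.3% of cells, or 28.2% and 57.9% at the thinned depth. Cldn10, a tight junction claudin, was at 23.4 and 62.4 CPM, 2.67 times lower (2.18 to 3.27). Slc38a1, an amino acid transporter (22.9 and 54.4 CPM), Sema3d, a secreted guidance factor (35.2 and 72.6), and Ifi27l2a (104 and 225) were 2.06 to 2.38 times lower. Chil1, a chitinase-like protein, was at 57.0 and 128 CPM, and without the goblet cluster at 38.3 and 56.8 CPM, under 1.5-fold. Of the 22 interferon-stimulated genes measured here 0 were higher and 3 lower, with a median of -0.13, against 0.876% lower and a median of 0.05 over all genes. With the filter at 50 CPM, 1 of 7 was lower and the median was 0.02.

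On the higher side, Id1, an inhibitor of differentiation factors that follows BMP signals, was at 124 and 44.7 CPM, 2.77-fold higher (2.41 to 3.18), and its relative Id3 at 32.7 and 7.64 CPM, 4.28-fold higher (3.13 to 5.94). These were the 2 genes called of 11 measured for TGF-beta and BMP. Cd81, a tetraspanin, was at 56.3 and 18.8 CPM, 2.99-fold higher (2.43 to 3.71), with a UMI in 61.8% and 26.3% of cells, or 23.2% and 8.65% at the thinned depth. Ly6d was at 147 and 58.5 CPM, 2.51-fold higher (2.22 to 2.84), and the flavin monooxygenase gene Fmo1 at 70.4 and 26.9 CPM, 2.62-fold higher (2.19 to 3.14). Lgi2 (76.6 and 32.3 CPM), the metalloproteinase inhibitor gene Timp3 (140 and 63.2), the phosphatase gene Dusp1 (69.5 and 30.1) and the sorbitol dehydrogenase gene Sord (58.5 and 28.6) were 2.04-fold to 2.37-fold higher. Squamous and desmosome genes were again higher in part, with 5 higher and 0 lower of 12 measured (Serpinb5, Ly6d, Krt4, Lgals3 and Evpl) and a median of 0.53, against 1.08% higher and a median of 0.05 over all genes. Without the goblet cluster 2 of 13 were higher and the median was 0.35. Summed basal markers stood at 1720 and 1530 CPM and hillock markers at 120 and 67.9 CPM in this class, and their part in these genes was not tested. Chil4, a chitinase-like protein, headed the list at 777 and 110 CPM, but 5 donor-derived cells held 96.9% of its UMIs there. Without the 5 highest cells of each library it stood at 24.2 and 2.54 CPM.

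Cdkn2a was higher in donor-derived intermediate, secretory-like and ciliated-like cells, and its level was highest in ciliated-like cells. This locus encodes a pair of growth-suppressing proteins from overlapping transcripts, which UMI counts per gene cannot separate, and lies on chromosome 4 (89274471 to 89294653, minus strand, GRCm38). In ciliated-like cells it was at 97.8 CPM in the donor-derived library and at 0.272 CPM, from 1 UMI, in the endogenous library, 359-fold higher (63.9 to 14200). A Cdkn2a UMI was found in 105 of 163 donor-derived cells (64.4%, 56.6 to 71.7) and in 1 of 189 endogenous cells (0.529%, 0.0134 to 2.91), or 37.4% and 0.529% at the thinned depth. The levels were 31.8 and 0.588 CPM for secretory-like, 22.7 and 0.301 CPM for intermediate and 15.4 and 0.320 CPM for basal-like cells, the last under the 20 CPM that a call needs. The share of donor-derived cells with a UMI was 37.8%, 20.1% and 12.7% in the same order, or 14.1%, 11.5% and 6.43% at the thinned depth, while none of these 4 endogenous classes exceeded 1.5%. At 1 depth the ciliated-like share therefore remained the highest. The intervals of the unthinned donor-derived shares did not overlap between these classes, but these shares also carry differences in depth. Median depths were 17237 UMIs in ciliated-like, 22282 in secretory-like, 13442 in intermediate and 10300 in basal-like donor-derived cells. No interval was computed for the thinned shares. Over whole libraries, 429 of 1816 donor-derived and 12 of 1350 endogenous cells had a UMI.

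**Figure D3:**
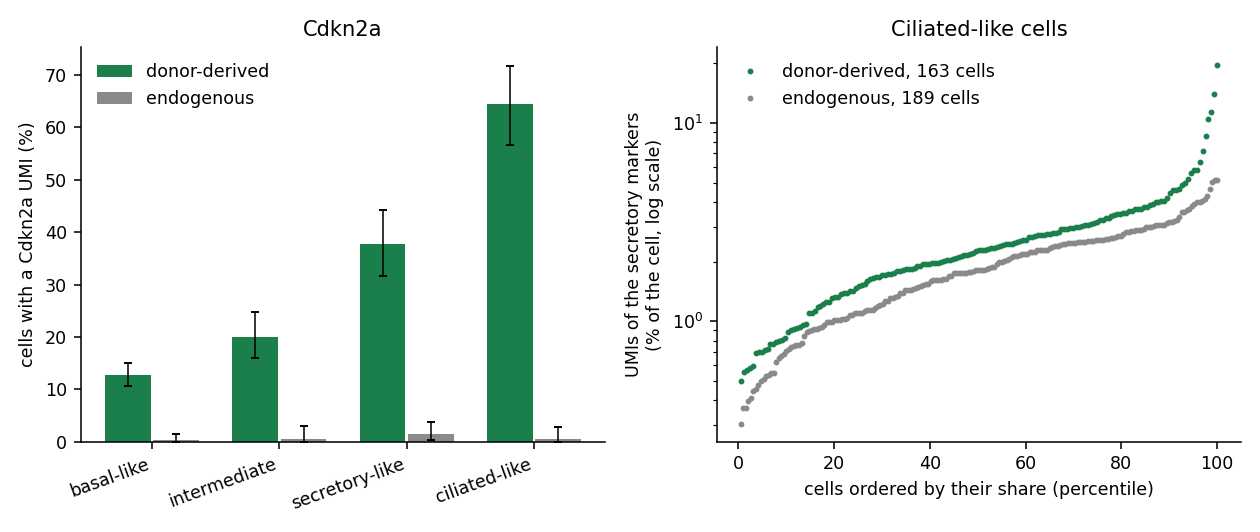
Left, share of cells (%) with a Cdkn2a UMI by class and library, with exact 95% intervals of counting error: donor-derived bars run from 12.7% in basal-like to 64.4% in ciliated-like cells, and endogenous bars stay at or below 1.5%. Right, UMIs of the secretory markers as % of each ciliated-like cell (log scale), cells ordered by this share; the highest donor-derived cell reached 19.5% and the highest endogenous cell 5.15%.

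Its neighbour Cdkn2b, a cyclin-dependent kinase inhibitor on the same strand (chromosome 4, 89306299 to 89311039), was at 45.0 and 14.2 CPM in ciliated-like cells, 3.18-fold higher (2.29 to 4.47), with a UMI in 89 of 163 and 47 of 189 cells. It stayed under 20 CPM in both libraries in the other classes, where it stood at 7.38 and 1.12 CPM (basal-like), 19.4 and 2.71 (intermediate) and 13.8 and 4.41 (secretory-like). Of 15 cell cycle inhibitors and p53 targets measured in ciliated-like cells, Cdkn2a, Cdkn2b and Phlda3 (27.1 and 14.7 CPM) were higher and 0 were lower, against 1.20% higher over all genes. The list's median was 0.18, against -0.03 over all genes.

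Of 6837 genes measured in ciliated-like cells, 82 were higher (1.20%) and 45 lower (0.658%) on the donor-derived side. Of 49 axoneme and motility genes and 12 regulators of multiciliated cells measured, none was called. Their medians were -0.11 and -0.12, against -0.03 over all genes. The class is itself gated on ciliated markers, and 4 of the 51 listed axoneme genes and 8 of the 18 listed regulators are cell type markers. The gate thus sets part of this likeness, and its part was not tested. Calml3, a calmodulin-like protein of epithelia, was at 271 and 54.8 CPM, 4.96-fold higher (4.24 to 5.81), with a UMI in 64.4% and 38.6% of cells. Gcnt1, which branches O-linked glycans, was at 59.5 and 11.7 CPM, 5.08-fold higher (3.62 to 7.27). Ccnd2, a D-type cyclin, was at 546 and 259 CPM, 2.11-fold higher (1.95 to 2.29), with a median of 7 and 2 UMIs per cell. Serpinb12 (162 and 73.8 CPM) and the protocadherin gene Pcdh7 (108 and 52.6) were 2.20-fold and 2.06-fold higher. Lower were Ctsk, the collagen-cutting cathepsin K, at 37.2 and 86.6 CPM, 2.33 times lower (1.87 to 2.92), Unc79, a subunit of a sodium leak channel complex (48.0 and 109), Cd36 (137 and 295), the actin-severing Gsn (319 and 667) and Wdr20rt (23 and 51.2), the last 4 by 2.09 to 2.26 times.

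Secretory and basal transcripts were also called higher in donor-derived ciliated-like cells, and these calls rest on few cells. All 3 measured secretoglobins were higher, Scgb3a2 at 775 and 76.8 CPM, Scgb3a1 at 1190 and 207 CPM and Scgb1a1 at 1540 and 494 CPM. The median cell went the other way or was equal: 3 against 6 UMIs of Scgb1a1, 4 against 6 of Bpifa1 and 1 against 1 of Scgb3a2, while the highest donor-derived cells held 3598, 3606 and 933 UMIs. The summed secretory markers were at 32300 and 20200 CPM and the basal markers at 246 and 31.1 CPM. After removal of cells that carried markers of another class, 24 of 163 donor-derived and 12 of 189 endogenous, the secretoglobin median turned from 2.49 to -1.37. Muc5b, Bpifb1 and Trf, also called higher in this class, turned sign with it, and Krt5 (35.2 and 3.81 CPM) had a UMI in 9.20% and 7.41% of these cells. Cdkn2a (106 and 0.295 CPM), Calml3 (298 and 50.2), Gcnt1 (59.7 and 10.0), Ccnd2 (483 and 246) and Ctsk (40.7 and 88.3) stayed at least 1.5-fold apart after that removal.

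Intermediate cells, 348 donor-derived and 187 endogenous, shared some calls with basal-like cells and not others. Genes named for this class were partly chosen because they were called elsewhere, and the overlap of all calls with basal-like cells was not counted. Of 5937 genes measured, 23 were higher (0.387%) and 51 lower (0.859%). Apoe was at 20.8 and 302 CPM, 14.5 times lower (11.9 to 17.8), with a UMI in 8.91% and 58.8% of cells, or 4.90% and 39.6% at the thinned depth. Apoc1 was at 14.7 and 113 CPM, Cd36 at 15.3 and 74.3 CPM and Chad at 13.3 and 83.1 CPM, lower by 7.71, 4.87 and 6.22 times. Of 25 interferon-stimulated genes measured 6 were lower and 0 higher, with a median of -0.32 against -0.02 over all genes: Ifi27l2a at 149 and 442 CPM, Isg15 at 24.4 and 43.9 CPM, Ifi44, Xaf1, Usp18 and Oasl2. Of these, Ifi27l2a, Isg15 and Ifi44 were also lower in basal-like cells. Higher were Krt14 (50.5 and 14.7 CPM, 3.43-fold, with a UMI in 14.7% and 14.4% of cells), Pitx1 (34.9 and 15.6, 2.23-fold) and Calml3 (149 and 70.7, 2.11-fold). Mcm4, Mcm6 and Mcm7, subunits of the helicase that starts DNA replication, were lower at 10.3 and 22.3, 12.4 and 28.3, and 14.5 and 28.0 CPM. They were the 3 genes called of 10 cell cycle genes measured in this class, and 1 of 9 was called lower at the thinned depth and 0 of 5 with the filter at 50 CPM. Squamous and desmosome genes showed no shift in this class, with 0 of 18 higher, 2 lower and a median of 0.04.

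Few genes were called in the same direction throughout. Of 324 genes called in at least 1 of the 4 epithelial classes, 257 were called in 1 class only. Of 4188 genes measured in all 4, the EGFP reporter was the 1 feature higher in every class, and Chchd7 was among the few genes lower in every class. Chchd7, a small mitochondrial protein gene on chromosome 4 (3938888 to 3951046), was at 31.3 and 59.2 CPM in basal-like, 32.4 and 57.8 in intermediate, 21.2 and 46.6 in secretory-like and 21 and 42.5 in ciliated-like cells, 1.78 to 2.19 times lower. Since the strain of the donors is not given, a strain difference between donor and host cannot be told apart from donor origin in these values or in those of Pitx1.

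Called in 3 of the 4 classes, 9 further features were higher and 6 lower. The higher ones were Cdkn2a, Calml3 and Gcnt1 (all but basal-like), Serpinb5, Dhrs9 and Ltf (all but intermediate), and Clic3, Foxq1 and Pitx1 (all but ciliated-like). For Ltf, most basal-like UMIs of the donor-derived library lay in a few cells, as given above. Its ciliated-like call lies in the class where secretory transcripts rested on few cells. Foxq1, a forkhead transcription factor, was at 20.2 and 7.68 CPM in basal-like, 29.0 and 13.8 in intermediate and 43.2 and 19.7 CPM in secretory-like cells, 2.09-fold to 2.63-fold higher. Pitx1 was 3.47-fold, 2.23-fold and 2.06-fold higher in the same classes, and 1.46-fold higher, without a call, in ciliated-like cells. The lower ones were Cd36 (all but secretory-like, where it was 1.42 times lower) and Eya4, Cldn10, Trf, Chad and Ifi27l2a (all but ciliated-like). Eya4, a transcription cofactor and phosphatase, was at 35.1 and 73.6 CPM in basal-like, 25.7 and 59.9 in intermediate and 23.2 and 39.5 CPM in secretory-like cells. On the ciliated-like side Eya4, Cldn10, Chad and Ifi27l2a stayed under 20 CPM in both libraries.

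**Figure D4:**
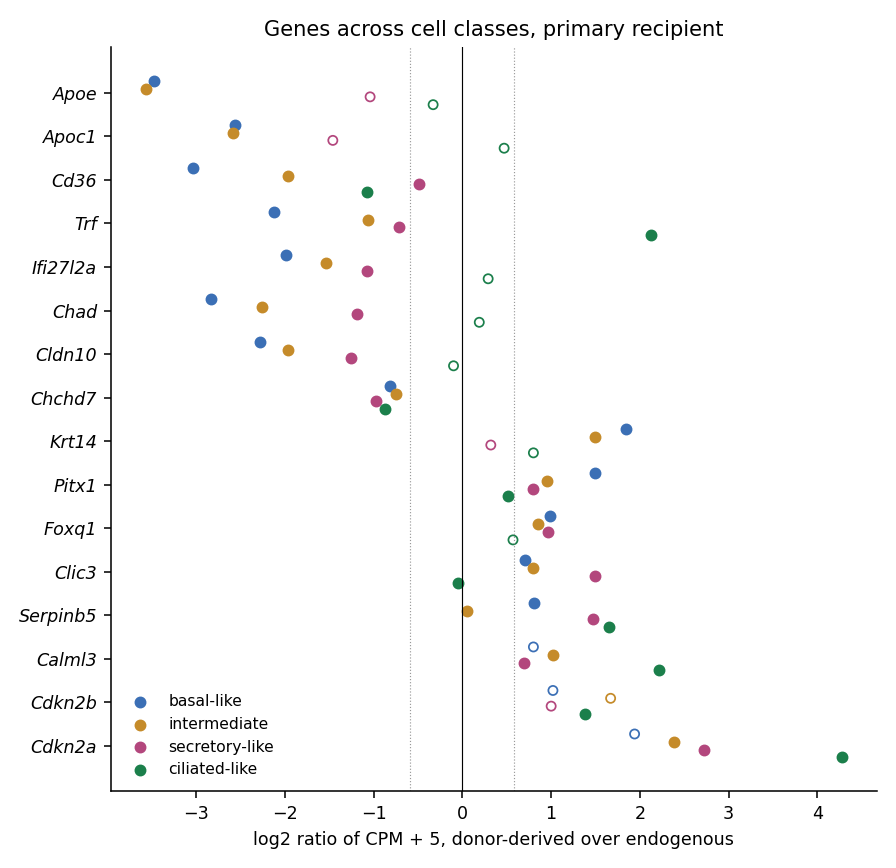
Log2 ratio (CPM + 5) of donor-derived over endogenous for 16 genes in basal-like, intermediate, secretory-like and ciliated-like cells. Filled points were measured (at least 20 CPM in either library), open points were not, and dotted lines mark 1.5-fold; Chchd7 lies left of the lines in all 4 classes, and Cdkn2a lies farthest right, at 4.28 in ciliated-like cells.

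**Figure D5:**
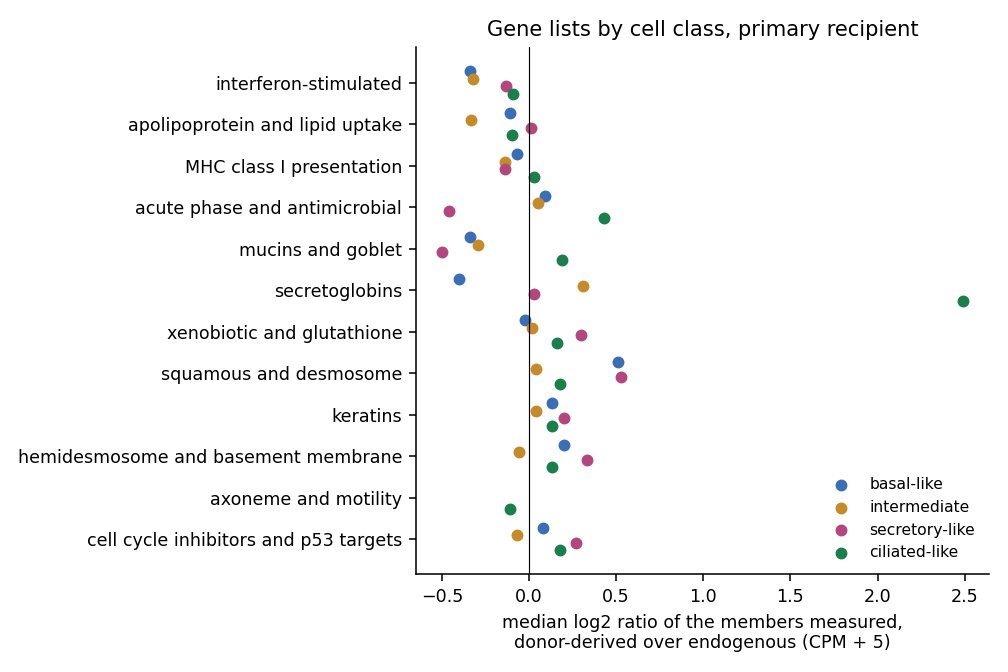
Median log2 ratio (CPM + 5) of the measured members of 12 gene lists in the 4 classes, donor-derived over endogenous, for lists with 3 or more measured members. Interferon-stimulated genes lie at -0.34 and -0.32 in basal-like and intermediate cells, squamous and desmosome genes at 0.51 for basal-like and 0.53 for secretory-like cells, and the secretoglobin point at 2.49 in ciliated-like cells is the one that turned sign without mixed cells.

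Whole libraries were compared without regard to class. Of 6438 genes measured, 49 were higher (0.761%) and 205 lower (3.18%) in the donor-derived library. In such sums, more cells of a type and more RNA per cell cannot be told apart. MHC class II genes, which present antigen on immune cells, were lower: Cd74 at 32.9 and 824 CPM, 25 times lower (23.4 to 26.8), and H2-Aa at 14.5 and 331 CPM, 22.9 times lower (20.7 to 25.5). All 6 measured of this list were lower, with a median of -4.05. In basal-like cells Cd74 was at 25 and 29.6 CPM, without a call, and H2-Aa at 5.13 and 4.64 CPM, too low to be measured, while Cd74 in secretory-like cells was lower at 8.35 and 26.9 CPM. H2-Eb1, H2-Ab1, the lysosomal protease gene Ctss (4.59 and 72.9 CPM) and the intermediate filament gene Vim (7.69 and 51.5 CPM) were lower as well. Retnla, a secreted protein of alternatively activated macrophages and of some epithelia, had 0 UMIs in the donor-derived library against 58.5 CPM, at least 510 times lower against the 3 counts that 0 allows over the library (0.115 CPM). On the higher side, the naming rule gave Krt14 (397 and 138 CPM), Chil4 (191 and 39.1 CPM), Ahnak2, Sparc, Serpinb5 and Clic3. The Chil4 value is limited by the few donor-derived secretory-like cells that held most of its UMIs in that class, the highest with 2170. Axoneme genes were lower in 21 of 44, with a median of -0.58, and with both libraries weighted to the same class shares the median was 0.00 and none was called.

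With the same class shares, 15 of the 49 higher and 39 of the 205 lower genes were still called. Apoe was then at 124 and 753 CPM, Krt14 at 335 and 203 CPM and Tff2 at 89.9 and 386 CPM. MHC class II genes no longer differed that way, as H2-Aa stood at 224 and 153 CPM; this weighting raises the 2 immune-like cells of the donor-derived library to the share of the 67 endogenous ones, so the value rests on 2 cells.

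The same contrast was available in a second recipient, an adult wild-type mouse labelled 129 X1/S1 that had received basal cells derived from embryonic stem cells (iBCs) and was examined at 192 days. Only 758 of 1576 cells (48.1%) of its GFP-positive library had an EGFP UMI, against 98.9% in the primary recipient. Donor origin there thus rests on the sort, with less backing from the reporter sequence. Donor cells, strain, interval and animal differ together between the recipients, and the differences were not tested. There far more genes were called: 572 higher and 345 lower of 6537 in basal-like cells, 1127 and 255 of 5076 in secretory-like cells and 590 and 585 of 7118 in ciliated-like cells. Of the genes lower in primary donor-derived basal-like cells, 40 of 65 were also lower in iBC-derived ones, 3 were higher, 9 were not called and 13 were not measured there. Of the 57 higher, 21 were higher, 5 lower, 20 not called and 11 not measured.

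Several of the genes described above took the same direction in both recipients. Apoe was at 662 and 4200 CPM in iBC-derived and endogenous basal-like cells, 6.33 times lower (6.12 to 6.55), and Cd36 at 0.343 and 64.2 CPM. Krt14 was at 1890 and 373 CPM there, 5.07-fold higher. Cdkn2a was at 68.7 and 0 CPM in basal-like cells (at least 126-fold higher), at 127 and 1.38 CPM in ciliated-like and at 96.4 and 0.118 CPM in secretory-like cells. Pitx1 was at 58.8 and 15.1 CPM in basal-like cells, and Foxq1 at 266 and 14.4 CPM. Ifi27l2a was lower in basal-like cells of both recipients (48.1 and 139 CPM in the second). Isg15, Rtp4 and Ifit1, in contrast, were not called in iBC-derived basal-like cells, where they stood at 23.5 and 30.2, 23.6 and 29.8, and 32.2 and 36.9 CPM, and Apoc1 was at 408 and 296 CPM. Genes higher in ciliated-like cells matched least, with 18 of 82 higher, 19 lower, 27 not called and 18 not measured in the second recipient. These 82 include genes whose call in the primary recipient was lost when cells with markers of another class were removed.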

How the data were processed

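Tracheal cells that stained with the live dye Calcein Blue were sorted by GFP and profiled with the 10X Chromium system, per the labels' protocols. Each deposited matrix gives counts of UMIs by gene and barcode over 30907 features, an EGFP reporter among them, per the file headers. The submitters' processing notes name Cell Ranger, STARsolo, Seurat and the build GRCm38 without versions or roles; strand use and multi-mapping are not given in the sources used here, so near-identical families (Fmo, Chil, Sprr2, H2 and Serpinb genes) are uncertain. Positions come from GENCODE vM21 (30843 IDs matched).

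Doublets were removed with Scrublet (scanpy 1.11.5). Classes were gated by the percent of a cell's UMIs on marker genes (basal 0.4, secretory 10, ciliated 0.4, hillock 0.1, immune 0.1), limits set after seeing the data, and 19 clusters (leidenalg 0.10.2) served as a check. Near the basal limit (0.35 to 0.45%) lay 62 donor-derived and 60 endogenous cells, and between 8 and 12% of secretory UMIs 121 and 67. For each class the UMIs of a library were added up and expressed in CPM, and a class was compared where each library held at least 50 of its cells. No p-value was computed.

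Named genes were, per comparison, up to 12 per direction with at least 50 CPM and 50 UMIs, at least 2-fold apart with the nearer bound at least 1.5-fold from 1, leaving out markers, sex-linked, reporter and systematic names, and genes whose CPM was under 10% of another class's in both libraries. For intermediate cells, list members and genes called elsewhere are named. Some genes that the rule names are not reported here. Other named genes are members of the lists that were called. The members, the 34 lists (878 genes, of which 6 had no match: Mx2, Cyp2c44, Hes4, Skip, Aldoa and Peg13) and the naming rule were chosen with earlier results of these data known. The calculation was tested on simulated data. Alternatives covered scaling (edgeR 4.0.16 TMM), pseudocount, filter, depth, gates and cells left out; the closing section gives their effect.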

Additional observations from a re-analysis of the deposited data

Results flagged for a closer look

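For 11 genes the call was higher in 1 class and lower in another class of the same animal. The difference between classes was not tested, and log2 ratios of donor-derived over endogenous cells are given. Sprr2a3 was at 1.76 in basal-like and -1.77 in intermediate cells, and Clca1 at 0.86 in secretory-like and -2.40 in intermediate cells. Fmo6 was at -0.78 in basal-like, -0.67 in intermediate and 1.37 in ciliated-like cells, and Gna14 at -0.77 in basal-like and 0.80 in ciliated-like cells. The other 7 are genes of secretory cells or of basal-like cells that were called higher in ciliated-like cells. Bpifb1 was at 1.71 in ciliated-like and -1.21 in secretory-like cells. Muc5b was at -0.81 in intermediate and -0.76 in secretory-like cells, against 2.23 in ciliated-like cells. Hp was at -1.26 in basal-like and 0.93 in ciliated-like cells, and Msln at -0.89 and 1.32. Sftpa1 was at -1.82 in basal-like, -0.71 in intermediate and 1.94 in ciliated-like cells. Trf was at -2.12 in basal-like, -1.06 in intermediate and -0.71 in secretory-like cells, against 2.13 in ciliated-like cells. Scgb3a1 was at 2.49 in ciliated-like cells, against -1.94 in basal-like and -1.05 in secretory-like cells. The ciliated-like values of these 7 turned sign in at least 1 alternative, as given below.

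For 4 gene and class pairs reported here the primary and the iBC recipient were called in opposite directions, which was not tested either. In secretory-like cells Fmo1 was at 1.24 in the primary and -1.60 in the iBC recipient. In ciliated-like cells Calml3 was at 2.21 and -3.16, Serpinb12 at 1.08 and -1.71 and Ccnd2 at 1.06 and -1.03.

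An EGFP UMI was found in 29 cells of the endogenous library, which was sorted as GFP-negative, against 1 of 1800 cells sorted the same way from the iBC recipient. These counts cannot be compared directly, because the reporter was weaker in the iBC recipient. EGFP stood at 65.3 CPM in its GFP-positive library and at 613 CPM in that of the primary recipient. Of the 29 cells, 21 had 2 or more EGFP UMIs, and the highest held 46. They included 11 secretory-like, 6 basal-like and 4 immune-like cells.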

How the results depend on the processing

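Counts of called genes moved by over 1.5 times in the following cases (donor-derived higher, then lower). With a filter at 50 CPM they fell to 24 and 105 (whole libraries), 30 and 31 (basal-like), 27 and 21 (secretory-like), 33 and 16 (ciliated-like) and 9 and 22 (intermediate), because fewer genes were measured. With cells thinned to 5000 UMIs there were 87 higher in basal-like cells, 183 and 103 in secretory-like, 142 and 160 in ciliated-like and 134 and 143 in intermediate cells. Without a pseudocount there were 85 higher in secretory-like, 77 lower in ciliated-like, and 45 and 78 in intermediate cells. The stricter gate gave 83 higher in secretory-like and 115 lower in ciliated-like cells, and removal of cells with markers of another class gave 71 lower in secretory-like cells. With the same class shares, whole libraries gave 26 and 47. Beyond the filter, the cause of these moves was not tested.

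Basal-like, secretory-like and immune-like shares from named clusters were 36.6%, 11% and 0.936% of donor-derived cells, and the first 2 were 30.1% and 16.8% of endogenous cells. The donor-derived hillock-like share was 7.99% at the thinned depth. Reversed log2 values in ciliated-like cells (stricter gate, then mixed cells removed) were -0.91 and -1.37 for the secretoglobin median, -1.16 and -1.07 for Bpifb1, -1.05 and -0.44 for Msln, -0.58 and -0.16 for Muc5b, -1.92 and -2.01 for Scgb3a1 and -0.31 and -0.17 for Trf. With mixed cells removed, Hp was at -0.04 and Sftpa1 at -0.56. Without the 5 highest cells, an alternative chosen after seeing the data, Bpifb1 was at -1.06, Muc5b at -0.74, Scgb3a1 at -1.64 and Sftpa1 at -0.19. With the same class shares the MHC class II median was 0.52 and the axoneme median 0.00, and H2-Aa was at 0.54, H2-Ab1 at 0.62, H2-Eb1 at 0.51 and Vim at 2.22. TMM scaling reversed 0 of 130 gene and class pairs and took 1 under 1.5-fold.

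No paired analysis was possible because each group is 1 library. The depth limits low genes: 1 UMI was worth 0.272 CPM in endogenous ciliated-like cells and 0.103 CPM in donor-derived basal-like cells.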

Other observations

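Hillock-like cells, which stratify and express squamous keratins, were too few on the endogenous side (42) for a comparison, and their sums are given as values. Krt13, the defining keratin of the state, was at 498 CPM (116 donor-derived cells) and 2420 CPM (42 endogenous cells). Krt6a was at 206 and 867 CPM, Serpinb2 at 148 and 452 CPM, Krt14 at 1410 and 2180 CPM and Krt5 at 1960 and 3070 CPM. The Krt14 value thus lay the other way from that in basal-like cells, as did the Krt5 value. Around the limit of the class (0.08 to 0.12%) lay 61 donor-derived and 16 endogenous cells, and the part of the limit in these values was not tested. Apoe was at 26.5 and 221 CPM and Cdkn2a at 33.4 and 5.84 CPM. Ifi27l2a, at 112 and 98.1 CPM, and Isg15, at 25.3 and 18.7 CPM, were not lower here as they were in basal-like cells. The intervals of both ratios included 1. The hillock-like clusters were 2, one led by Krt13 and Lgals7 (53 donor-derived and 21 endogenous cells) and one led by S100g and Nupr1 (56 and 13).

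Within the endogenous library a Cdkn2a UMI was more frequent among cells with the reporter, a difference that rests on few cells. Of the 12 cells with a Cdkn2a UMI in this library, 5 carried EGFP and 7 did not. A Cdkn2a UMI was found in 17.2% (5.85 to 35.8) of the 29 cells with EGFP and in 0.530% of the 1321 without, against 23.8% (21.9 to 25.9) of the 1796 EGFP cells of the donor-derived library.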
